A study of Homo sapiens with 15 samples.

Results

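MOLM-14 cells that received GFP RNA by electroporation were compared with MOLM-14 cells that received only the drug solvent. MOLM-14 is an established human acute myeloid leukaemia cell line. The comparison used 4 of the 8 RNA-seq libraries of a study with 15 samples: 2 from cells electroporated with 100 nM in vitro-transcribed GFP RNA, and 2 from cells given DMSO vehicle. All were incubated for 6 h. The GFP RNA cells were the study's control for NR4A1 RNA, which was electroporated in the same way, and the vehicle cells were its control for 10 µM dihydroergotamine (DHE). The labels describe no electroporation of the vehicle cells, so the electric pulse, the RNA and the day-to-day handling of the 2 experiments cannot be told apart. No label says that replicates came from separate cultures, so p-values measure only the spread between libraries, which may be technical. Of 57964 entries in the expression table, 13264 reached 1 TPM in 2 or more of these 4 and were tested.

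RNA made in vitro and brought into the cytoplasm can be bound by sensors such as RIG-I (DDX58), MDA5 (IFIH1) and PKR (EIF2AK2). These sensors signal through the transcription factors IRF3, IRF7 and NF-kB to interferons and inflammatory cytokines. Interferon receptors in turn activate a complex that includes STAT2 and IRF9 and binds the interferon-stimulated response element (ISRE) of antiviral genes. Electroporation itself opens pores in the plasma membrane, through which ions and small molecules pass until the membrane reseals.

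Levels are given as TPM, the share of transcripts after correction for their length, rescaled between libraries so that the typical gene is level, and fold changes are GFP RNA over vehicle on the scale of log2(rescaled TPM + 0.5). Without rescaling the median of all entries moves to -0.11. The labels give the cells of the 4 libraries as MOLM-14, and the marker genes here only describe them. Of 23 myeloid identity genes, 20 reached 1 TPM in any of the 4 libraries. ANPEP and KIT of that list reached at most 0.143 and 0.174 TPM, and CLEC12A at most 1.19 TPM. Both GFP RNA and both vehicle libraries contained the myeloid genes CD33 (19.8 and 20.8 against 21.7 and 23.3 rescaled TPM) and SPI1 (45.0 and 31.3 against 26.0 and 27.1). The blood stem cell marker CD34 and the monocyte marker CD14 reached at most 0.0430 and 0.0765 TPM, and HBB of red cells was listed at 0. Summed over 18 lymphocyte markers the level was 10.5 and 11.03 TPM in GFP RNA cells and 7.37 and 6.41 TPM in vehicle cells, and the B and T cell markers MS4A1 and CD3E were at or near 0. Of these 18 only TRAC and PAX5 reached 1 TPM in any of the 4 libraries, and TRAC had 3.15 and 4.17 TPM in GFP RNA cells and 1.49 and 0.951 TPM in vehicle cells. Summed over 16 epithelial and fibroblast markers the level was 43.0 and 36.4 TPM in GFP RNA cells and 28.05 and 27.9 TPM in vehicle cells. Only KRT18, MUC1 and KRT8 of these 16 reached 1 TPM in any of the 4 libraries, while KRT5, KRT19 and COL3A1 were listed at 0 in all 4. MUC1 had 24.0 and 13.8 TPM in GFP RNA cells and 7.36 and 7.10 TPM in vehicle cells, and KRT18 had 15.5 and 19.1 TPM against 17.9 and 17.3 TPM. The part of these lymphocyte and epithelial markers in the results was not tested.

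The 2 GFP RNA libraries differed from each other more than the vehicle pair did. The median absolute log2 difference between replicates was 0.197 for GFP RNA and 0.0742 for vehicle. GFP RNA replicate 1 stood apart. Transcripts related to ribosomal RNA made up 25.7% of its TPM, against 2.88% in GFP RNA replicate 2 and 1.61% and 1.45% in the vehicle libraries. Mitochondrially encoded transcripts made up 0.776% and 0.445% of TPM in the GFP RNA libraries and 0.404% and 0.375% in the vehicle libraries. The second DHE library leaned the same way, with 7.39% of its TPM in transcripts related to ribosomal RNA. The calls, the list medians and some of the genes that this library moved are therefore also given without GFP RNA replicate 1. Other named genes moved too. Without it the log2 fold change went from 0.49 to 0.23 for SPI1, from 1.39 to 0.90 for MUC1 and from -0.68 to -0.46 for HSPA8.

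**Figure D1:**
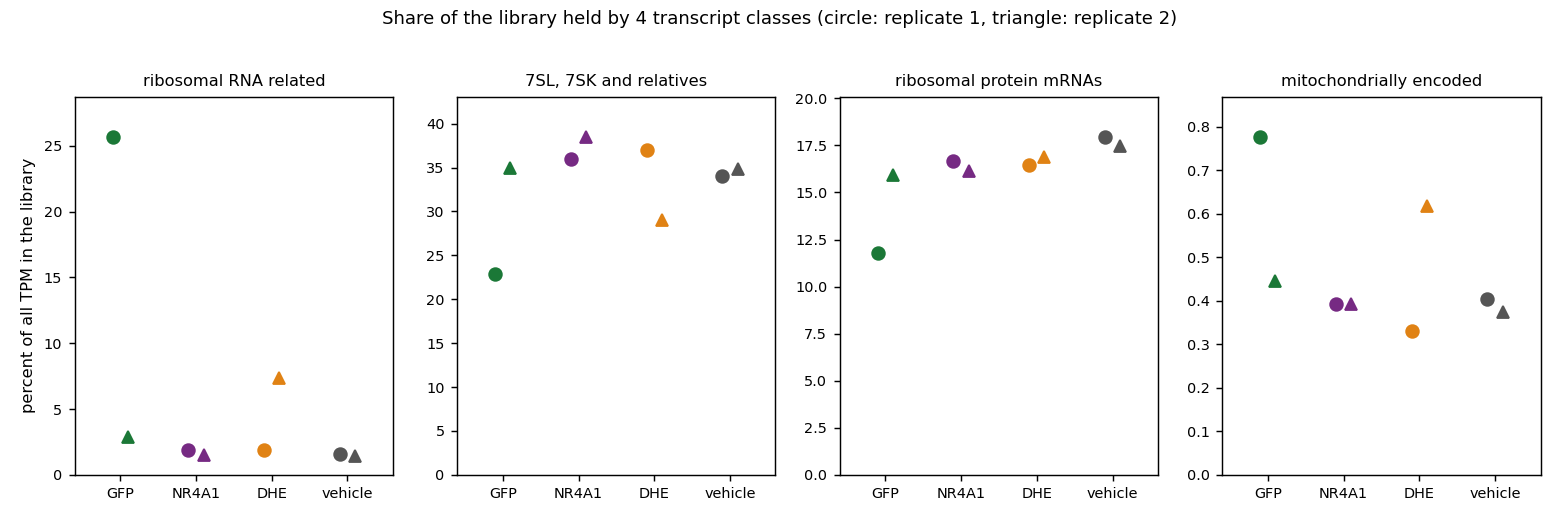
Share of all TPM (y axis, percent) held by 4 transcript classes in each of the 8 libraries (x axis, groups of 2 libraries). GFP RNA replicate 1 holds 25.7% of its TPM in transcripts related to ribosomal RNA, and the vehicle libraries hold 1.61% and 1.45%.

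At an adjusted p under 0.05 and more than 1.5-fold, 2 entries rose and 0 fell, which is 0.0151% and 0% of the entries tested (limma with Benjamini-Hochberg adjustment). Without GFP RNA replicate 1 or without vehicle replicate 2 no entry was called, and without GFP RNA replicate 2, where the remaining library is assumed to vary like the other groups, 352 were called higher and 192 lower. The first was IRF9, the DNA-binding partner of STAT2. IRF9 had 13.7 and 15.3 rescaled TPM in GFP RNA cells, against 3.88 and 3.12 in vehicle cells. Its log2 fold change was 1.91 (SE 0.109, adjusted p = 0.012 by limma). With GFP RNA replicate 1 left out the log2 fold change was 2.00, and the adjusted p by limma was 0.12, so the call was lost while the size was kept. It was also lost without vehicle replicate 2 (log2 fold change 1.77, adjusted p = 0.090 by limma) and without NR4A1 RNA replicate 2 (1.91, adjusted p = 0.051 by limma), and over all alternatives the adjusted p ran between 0.0032 and 0.22. IRF9 lies on the plus strand of chromosome 14, from 24630443 to 24637252 in GRCh37, where a readthrough transcript with its upstream neighbour and an antisense RNA overlap it.

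The second was an entry named only by the Rfam family identifier RF01518, for which no gene name or position was found. RF01518 had 400.2 and 319 rescaled TPM in GFP RNA cells, against 23.1 and 20.6 in vehicle cells, a log2 fold change of 4.00 (SE 0.209, adjusted p = 0.012 by limma). Without GFP RNA replicate 1 the RF01518 log2 fold change was 3.84 (adjusted p = 0.12 by limma), without vehicle replicate 1 it was 4.08 (adjusted p = 0.071 by limma) and without vehicle replicate 2 it was 3.92 (adjusted p = 0.11 by limma), and over all alternatives the adjusted p ran between 0.0022 and 0.12. In NR4A1 RNA cells the entry stood at 384 and 291 and in DHE cells at 32.8 and 45.3, so all 4 electroporated libraries were several times above all 4 libraries of DHE and vehicle cells.

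The single-gene test thus passed little, yet more entries had a small unadjusted p than that count shows. At an unadjusted p under 0.05, 1368 entries were higher (10.3%) and 1253 lower (9.45%). Of these, 539 (4.06% of all entries) were also more than 1.5-fold higher and 104 (0.784%) more than 1.5-fold lower. Counts and shares at an unadjusted p, here and in the lists below, include GFP RNA replicate 1. They are not given without it, because 1 GFP RNA library would remain, so how far they rest on that library is not shown. In 27.1% of entries both GFP RNA libraries lay above both vehicle libraries, with 29.3% the other way round. For 4 values in random order, a separation either way arises with probability 0.3333, so much of this separation needs no difference between groups. For the same reason an exact permutation test of 2 against 2 libraries cannot go below p = 0.3333, so it decides nothing here. The genes named from here on, other than IRF9, NR4A1 and its family, the super enhancer oncogenes and the marker genes, were chosen after their values were seen, as the members of each list with small p or a well known role. Their adjusted p-values were above 0.05, and their values are a description.

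Interferon-stimulated genes had the largest share of members higher at an unadjusted p under 0.05 among the 46 lists with a tested member. The lists were chosen with earlier results of these data known, so the rank is a description. Of 53 listed, 44 were tested, and in 31 both GFP RNA libraries lay above both vehicle libraries (70.5%, against 27.1% of all entries). In 0 of the 44 did both lie below. By the share with both above, other lists stood higher. They were glucocorticoid and FOXO targets (78.6%), the integrated stress response (75.0%), mitochondrially encoded genes (73.3%) and the 2 lymphocyte markers tested (100.0%). Of the 44, 28 were higher at an unadjusted p under 0.05 (63.6%, against 10.3% of all entries) and 0 were lower. The median log2 fold change was 0.38 over the list, and 0.42 without GFP RNA replicate 1, where the median of all entries was -0.0032 and -0.0066. GFP RNA replicate 2 alone was above both vehicle libraries in 38 of the 44 and below both in 1. Over all 13264 entries it was above both in 5148 and below both in 5552. An entry under 1 TPM in both vehicle libraries was tested only if both GFP RNA libraries reached 1 TPM. Such members, among them OAS2, IFIT1, IFIT3, IFI6 and IFI44, therefore lay above vehicle by the choice of entries. How far they set the counts, the median and the rank was not tested. The same rule, in both directions, applied to all entries and to every list.

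Apart from IRF9, the members furthest apart were of low abundance. OAS2, which makes the second messenger that activates RNase L on double-stranded RNA, had 5.33 and 3.81 rescaled TPM in GFP RNA cells and 0.393 and 0.465 in vehicle cells (log2 fold change 2.43, SE 0.201, adjusted p = 0.053 by limma). Its relative OAS1 had 3.67 and 3.93, against 1.19 and 1.42. The IFIT proteins bind foreign RNA at its end, and IFIT1 had 2.48 and 2.75 in GFP RNA cells, against 0.578 and 0.420 in vehicle cells. IFIT3, which stabilizes IFIT1, had 2.22 and 2.80 against 0.443 and 0.505. In each of these genes the groups were well separated and replicate 2 on its own gave a log2 fold change above 1.

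More abundant members differed by less. EIF2AK2, the kinase that stops translation on double-stranded RNA, had 17.1 and 16.5 rescaled TPM in GFP RNA cells and 10.9 and 10.4 in vehicle cells (log2 fold change 0.63, adjusted p = 0.058 by limma). IRF7, which drives type I interferon genes, had 8.15 and 7.53 against 4.83 and 4.64. STAT2 had 18.6 and 18.1 against 14.4 and 15.7. The log2 fold change of STAT2 was 0.28, beside the 1.91 of its partner IRF9. RSAD2 (viperin), an antiviral enzyme, showed no separation, with 2.03 and 2.58 in GFP RNA cells and 2.30 and 2.25 in vehicle cells.

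The interferon genes themselves were at or near 0. Of 22 interferon genes of types I, II and III, 20 were listed at 0 in all 4 libraries, and the highest value was 0.0273 TPM. CXCL10, a chemokine induced by interferons, had 1.63 and 2.45 rescaled TPM in GFP RNA cells and 0.576 and 0.391 in vehicle cells. Among 21 tested sensors of foreign RNA and their partners, 7 were higher at an unadjusted p under 0.05 (33.3%, against 10.3% of all entries) and 0 lower. This list shares members such as OAS2 with the interferon-stimulated genes, so it is not a separate result. In it GFP RNA replicate 2 alone was above both vehicle libraries in 10 members and below both in 8. Over all 13264 entries these counts were 5148 and 5552. IFIH1 had 2.86 and 3.21 against 2.21 and 2.02, and DDX58 had 5.06 and 6.08 against 4.44 and 4.40. The median of the list, 0.14, was 0.06 without GFP RNA replicate 1.

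The other libraries place these levels. IRF9 stood at 14.7 and 14.7 rescaled TPM in NR4A1 RNA cells and at 9.09 and 8.84 in DHE cells, for which the labels describe no electroporation. OAS2 had 2.32 and 2.19 in NR4A1 RNA cells and 0.654 and 0.848 in DHE cells, and IFIT1 had 1.26 and 1.61 in NR4A1 RNA cells and 0.610 and 0.551 in DHE cells. OAS1 was highest in NR4A1 RNA cells, at 9.54 and 10.5, and STAT2 in DHE cells, at 45.1 and 44.0. GFP RNA cells were thus the highest group for OAS2 and IFIT1, level with NR4A1 RNA cells for IRF9, and below another group for OAS1 and STAT2. Differences from NR4A1 RNA and DHE cells were not tested.

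**Figure D2:**
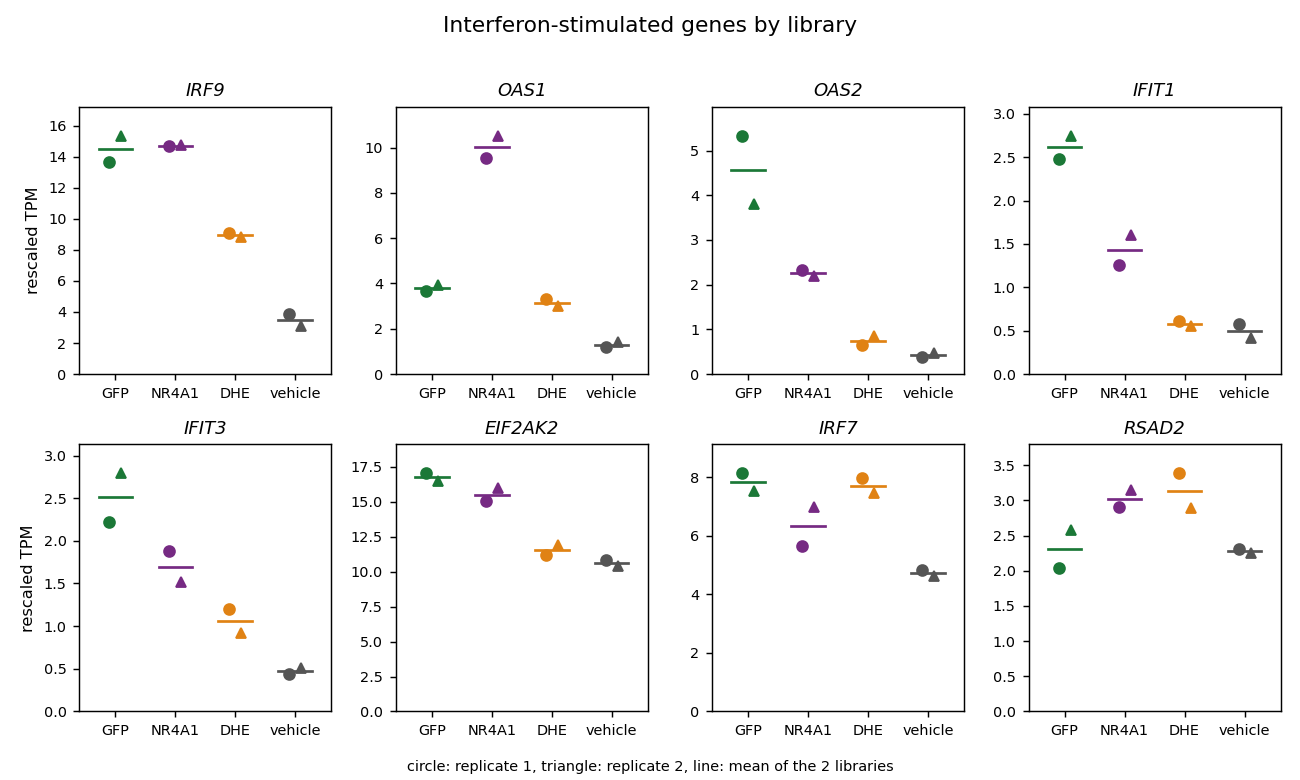
Rescaled TPM (y axis, from 0) of 8 interferon-stimulated genes in the 2 libraries of each group (x axis); lines are means. IRF9 lies at 13.7 and 15.3 in GFP RNA cells and at 3.88 and 3.12 in vehicle cells, whereas the RSAD2 values of both groups overlap.

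The promoters of several of these genes hold a match to the ISRE. The stretches shown end at the base before the start site and come from RefSeq (GRCh38.p14). They are shown because IFIT1, IFIT3, IFI6 and IFI44 were among the members furthest apart and IRF9 was the gene that passed the test. Capitals mark GAAANNGAAA or its reverse complement, a core form of the ISRE. In the order shown they lie at chr10:89392453-89392622 (plus strand), chr10:89327821-89327996 (plus strand), chr1:27672193-27672368 (minus strand), chr1:78649619-78649788 (plus strand) and chr14:24161095-24161264 (plus strand).
IFIT1: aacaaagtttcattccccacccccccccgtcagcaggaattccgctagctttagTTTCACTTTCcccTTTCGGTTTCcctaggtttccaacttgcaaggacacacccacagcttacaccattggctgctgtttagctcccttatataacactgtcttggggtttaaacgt
IFIT3: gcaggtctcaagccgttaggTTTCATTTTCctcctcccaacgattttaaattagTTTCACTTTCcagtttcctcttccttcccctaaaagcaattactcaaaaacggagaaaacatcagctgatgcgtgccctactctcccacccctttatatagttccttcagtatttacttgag
IFI6: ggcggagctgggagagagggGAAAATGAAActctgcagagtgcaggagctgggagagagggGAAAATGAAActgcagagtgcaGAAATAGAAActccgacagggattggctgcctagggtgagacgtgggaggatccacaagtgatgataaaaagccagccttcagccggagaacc
IFI44: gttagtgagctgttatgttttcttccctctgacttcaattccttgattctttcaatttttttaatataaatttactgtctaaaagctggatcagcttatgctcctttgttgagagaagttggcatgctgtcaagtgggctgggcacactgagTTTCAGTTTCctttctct
IRF9: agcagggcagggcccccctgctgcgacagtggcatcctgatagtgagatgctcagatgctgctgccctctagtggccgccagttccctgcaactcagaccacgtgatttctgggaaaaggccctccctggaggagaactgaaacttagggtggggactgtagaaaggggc
IFIT1 and IFIT3 hold 2 matches each, IFI6 holds 3 and IFI44 holds 1. IFI6 had 1.93 and 1.88 rescaled TPM in GFP RNA cells and 0.304 and 0.395 in vehicle cells, and IFI44 had 1.29 and 1.42 against 0.179 and 0.131. The IRF9 window has no match to these letters. Searched on both strands over 250 bases before to 50 bases after each start, 25 of 47 promoters of the tested interferon-stimulated genes (33 of 44 genes matched) hold a match, or 53.2%, against 3.57% of all 35116 promoters. The list was made of known interferon targets, so this share describes the list and not the experiment.

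NF-kB genes and inflammatory cytokines lay mostly on the same side. Of 36 listed, 16 were tested, and 12 had a log2 fold change above 0 and 4 below. At an unadjusted p under 0.05, 8 were higher (50.0%, against 10.3% of all entries) and 0 lower. The 20 untested members, among them IL1B, IL6 and CXCL8, reached at most 0.837 TPM in these 4 libraries. The list's median log2 fold change was 0.12, and 0.24 without GFP RNA replicate 1. RELB and NFKB2 encode the pair of subunits of the non-canonical NF-kB pathway. RELB had 4.32 and 3.14 rescaled TPM in GFP RNA cells, against 0.690 and 0.989 in vehicle cells (log2 fold change 1.65, SE 0.191, adjusted p = 0.058 by limma). NFKB2 had 5.92 and 5.75, against 2.72 and 2.02 (log2 fold change 1.15, SE 0.127, adjusted p = 0.058 by limma). Without GFP RNA replicate 1 the log2 fold changes were 1.46 for RELB and 1.14 for NFKB2.

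The cytokine TNF had 24.2 and 21.8 rescaled TPM in GFP RNA cells and 15.3 and 15.1 in vehicle cells. TNFAIP3 (A20), which feeds back on NF-kB, had 14.7 and 10.8 in GFP RNA cells and 7.35 and 8.14 in vehicle cells. LTB, a ligand of the non-canonical pathway, had 4.38 and 4.24 against 2.49 and 1.88. In DHE cells TNF had 2.55 and 2.45 and NFKB2 6.96 and 6.59, so the cytokine and the subunit did not follow each other there. One of the NFKB2 promoters in the same RefSeq table, chr10:102395535-102395704 (plus strand), is shown because kappa B sites are what NF-kB dimers bind, with the match to GGGNNTTTCC, a kappa B site form, in capitals.
NFKB2: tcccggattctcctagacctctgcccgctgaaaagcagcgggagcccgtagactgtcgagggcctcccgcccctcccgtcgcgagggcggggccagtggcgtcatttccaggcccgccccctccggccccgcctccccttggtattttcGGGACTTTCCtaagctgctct
That form is present in 8 of 21 promoters of the tested NF-kB list (38.1%) and in 1.91% of all promoters. The list was made of known NF-kB targets and cytokines, so this share describes the list and not the experiment.

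Immediate early genes, which respond to membrane and growth signals without new protein synthesis, lay mostly above the vehicle level. Of 34 tested, 18 were higher at an unadjusted p under 0.05 (52.9%, against 10.3% of all entries) and 1 was lower. Their median log2 fold change was 0.36, or 0.32 without GFP RNA replicate 1. JUN, a subunit of AP-1, had 3.74 and 2.87 rescaled TPM in GFP RNA cells and 0.626 and 0.414 in vehicle cells (log2 fold change 1.90, SE 0.195, adjusted p = 0.058 by limma). ATF3, a stress-induced partner of JUN, had 4.39 and 3.91 against 2.21 and 2.04, and RGS1, a brake on G protein signalling, had 2.08 and 2.78 against 0.718 and 0.634. FOS, the other classical AP-1 subunit, had 7.36 and 6.55 in GFP RNA cells and 7.37 and 7.81 in vehicle cells, with an adjusted p of 0.59 by limma. JUND and KLF2 rested mainly on 1 library. JUND had 127 and 62.4 against 46.7 and 47.1, and KLF2 had 2.51 and 1.23 against 0.741 and 0.732, with GFP RNA replicate 1 the higher each time. Without it their log2 fold changes were 0.41 and 0.48.

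Lists of growth arrest and cell stress differed in direction. Of 29 p53 targets tested, 9 were higher at an unadjusted p under 0.05 (31.0%, against 10.3% of all entries) and 0 lower. Their median log2 fold change was 0.20, or 0.24 without GFP RNA replicate 1. CDKN1A (p21), the inhibitor of cyclin-dependent kinases, had 58.7 and 53.3 rescaled TPM in GFP RNA cells and 35.9 and 35.2 in vehicle cells (log2 fold change 0.65, SE 0.0654, adjusted p = 0.058 by limma). MDM2, which marks p53 for degradation, had 107 and 109 against 85.0 and 80.2. The BCL2 family of apoptosis had no common direction: of 17 tested, 1 was higher (5.9%) and 2 were lower (11.8%) at an unadjusted p under 0.05. Among all entries these shares were 10.3% and 9.45%. The family's median log2 fold change was 0.0039, with the sign turning without rescaling (-0.11) and with quantile normalization (-0.01). Its highest member was BMF, a BH3-only protein that promotes apoptosis, with 6.99 and 6.08 against 2.97 and 2.64.

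Of 36 tested genes of the integrated stress response, 16 were higher at an unadjusted p under 0.05 (44.4%, against 10.3% of all entries) and 0 lower. The median log2 fold change of this response was 0.25, or 0.19 without GFP RNA replicate 1. Kinases such as PKR start this response by blocking translation initiation, and the factor ATF4 carries it to its targets. ATF4 mRNA had 221 and 256 rescaled TPM in GFP RNA cells and 261 and 264 in vehicle cells, whereas its targets CTH and PSAT1, enzymes of cysteine and serine synthesis, were on the high side. CTH had 5.30 and 4.75 against 2.62 and 2.84, and PSAT1 had 117 and 107 against 80.0 and 74.9. PPP1R15A (GADD34), the phosphatase subunit that ends the response, had 6.59 and 7.61 against 4.60 and 4.39. Chaperones lay on the other side. Of 35 tested genes of endoplasmic reticulum chaperones and the unfolded protein response, 9 were lower at an unadjusted p under 0.05 (25.7%, against 9.45% of all entries). Higher were 3 (8.6%, against 10.3%). Their median was -0.14, or -0.10 without GFP RNA replicate 1. Of 25 heat shock proteins, 9 were lower (36.0%, against 9.45% of all entries) and 1 higher (4.0%, against 10.3%). The heat shock median was -0.18, or -0.12 without that library. The chaperone HSPA8 had 737 and 1000.4 rescaled TPM in GFP RNA cells and 1348 and 1397 in vehicle cells.

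Of 21 tested genes of salt and osmotic balance, 7 were higher at an unadjusted p under 0.05 (33.3%, against 10.3% of all entries) and 0 lower. Their median log2 fold change was 0.19, or 0.17 without GFP RNA replicate 1. The kinase SGK1 had 3.37 and 2.41 rescaled TPM in GFP RNA cells and 1.26 and 1.35 in vehicle cells, and NFAT5, the factor that answers to hypertonicity, had 5.70 and 4.15 against 2.27 and 2.02. In both genes replicate 1 was the higher GFP RNA library.

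**Figure D3:**
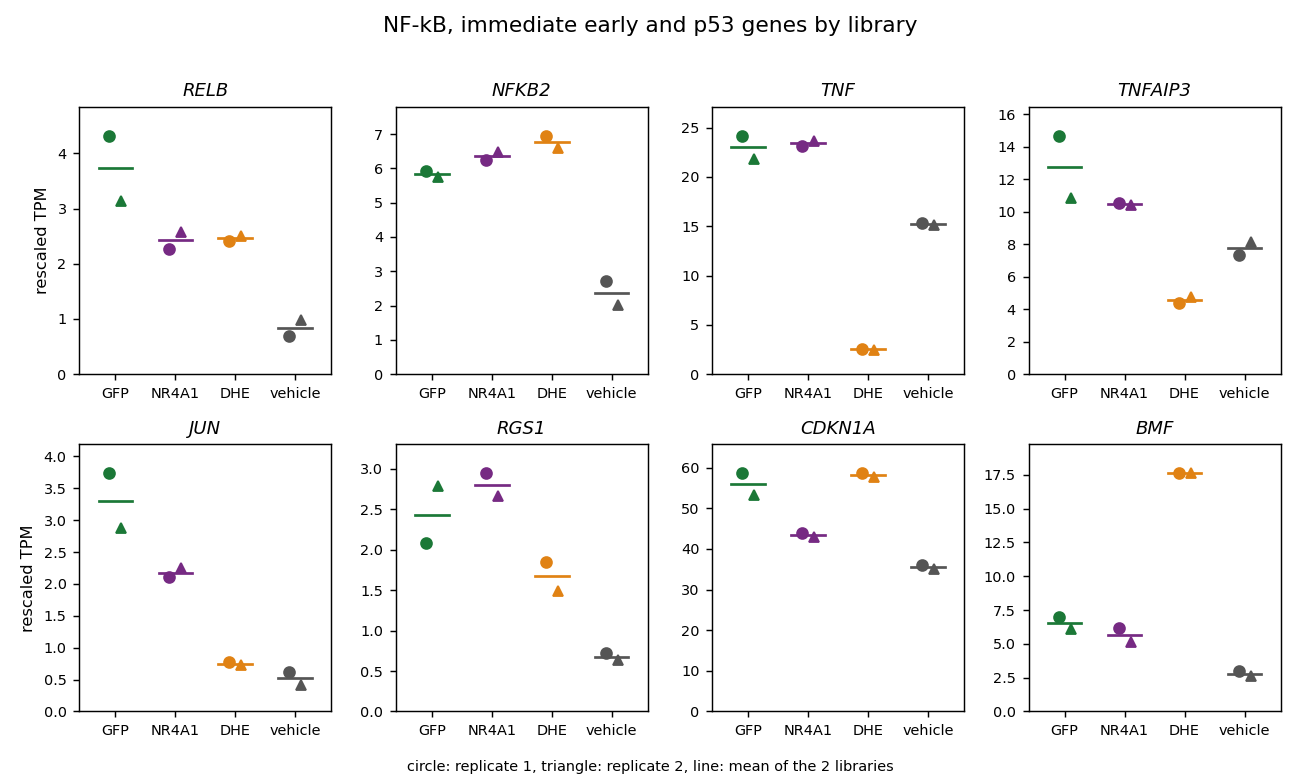
Rescaled TPM (y axis, from 0) of NF-kB, immediate early and p53 genes and of BMF of the BCL2 family in the 2 libraries of each group (x axis). Lines are means. The 8 genes were chosen after their values were seen, and FOS, which was not higher in GFP RNA cells, is not shown. In all 8 both GFP RNA libraries lie above both vehicle libraries, as in 27.1% of all entries. RELB lies at 4.32 and 3.14 against 0.690 and 0.989.

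In the other direction, the genes of cholesterol synthesis and uptake had the largest share of members lower at an unadjusted p under 0.05 among the 46 lists. SREBP2 (SREBF2) drives them together when membrane sterol is short. Of 31 listed, 29 were tested, and in 23 both GFP RNA libraries lay below both vehicle libraries (79.3%, against 29.3% of all entries). In 3 of the 29 both lay above. By the share with both below, cytosolic ribosomal protein genes (93.7%) and nuclear genes of the respiratory chain (84.7%) stood higher. Of the 29, 20 were lower at an unadjusted p under 0.05 (69.0%, against 9.45% of all entries) and 0 were higher. The median log2 fold change was -0.36, and -0.31 without GFP RNA replicate 1. Summed over the list, the level was 415 and 506 TPM in GFP RNA cells and 637 and 632 TPM in vehicle cells before rescaling.

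INSIG1, the sterol-sensing anchor that holds SREBP in the endoplasmic reticulum and is itself its target, had 12.3 and 13.4 rescaled TPM in GFP RNA cells and 26.0 and 27.1 in vehicle cells (log2 fold change -1.02, SE 0.0969, adjusted p = 0.058 by limma). SQLE, which oxidizes squalene, had 5.54 and 7.01 against 11.1 and 12.3. The late enzymes MSMO1 (3.45 and 4.15 against 6.62 and 6.88) and DHCR7 (4.32 and 4.20 against 7.23 and 8.84) were also apart. The log2 fold changes of these genes without GFP RNA replicate 1 lay between -0.96 for INSIG1 and -0.64 for MSMO1.

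SREBF2 itself had 36.8 and 22.5 rescaled TPM in GFP RNA cells and 22.0 and 21.6 in vehicle cells, and its log2 fold change of 0.39 was 0.04 without GFP RNA replicate 1. Outside sterol synthesis, PCYT2, an enzyme of phosphatidylethanolamine synthesis, had 10.99 and 11.6 against 17.0 and 17.9, and the fatty acid desaturase FADS2 had 5.60 and 5.12 against 7.77 and 8.24. Of 17 tested genes of fatty acid synthesis 7 were lower at an unadjusted p under 0.05 (41.2%, against 9.45% of all entries) and 2 higher (11.8%, against 10.3%). Their median of -0.09 turned to 0.03 with equal totals without the most abundant RNA classes. The sterol element form TCACNCCAC was found in 1 of 32 promoters of the tested cholesterol genes (3.12%) and in 1.13% of all promoters.

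NR4A1 RNA and DHE cells differed here. INSIG1 had 13.2 and 12.4 rescaled TPM in NR4A1 RNA cells and 43.3 and 36.7 in DHE cells, while SQLE had 15.8 and 16.6 in NR4A1 RNA cells and 13.9 and 12.2 in DHE cells. INSIG1 was thus low in all 4 electroporated libraries, and SQLE was low only in the GFP RNA pair among the 8 libraries. These comparisons with other groups were not tested.

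Of 13 tested genes of monocyte and macrophage differentiation, 5 had a log2 fold change above 0 and 8 below. At an unadjusted p under 0.05, 3 were lower (23.1%, against 9.45% of all entries) and 1 was higher (7.7%, against 10.3%). The median was -0.13, or -0.06 without GFP RNA replicate 1. The 3 furthest below vehicle were S100A8, S100A9 and LYZ. The monocyte calcium-binding pair S100A8 and S100A9 had 10.9 and 15.3, and 16.3 and 24.2, rescaled TPM in GFP RNA cells, against 29.5 and 27.0, and 40.5 and 39.5, in vehicle cells. LYZ, lysozyme, had 99.6 and 132 against 199 and 199. PRG2, the major basic protein of eosinophil granules, had 1.71 and 1.93 against 5.74 and 4.51 (log2 fold change -1.27, SE 0.148, adjusted p = 0.058 by limma). Among granulocyte precursor genes, 6 of 15 tested were lower at an unadjusted p under 0.05 (40.0%, against 9.45% of all entries) and 0 higher. The granule proteases did not separate as far: ELANE had 638 and 525 against 654 and 639. The median log2 fold change of that list was -0.16, also without GFP RNA replicate 1. In bulk RNA, fewer cells of a type and less RNA per cell cannot be told apart. In S100A8, S100A9 and LYZ, GFP RNA replicate 1 was the lower library, and without it the log2 fold changes were -0.87, -0.71 and -0.59.

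**Figure D4:**
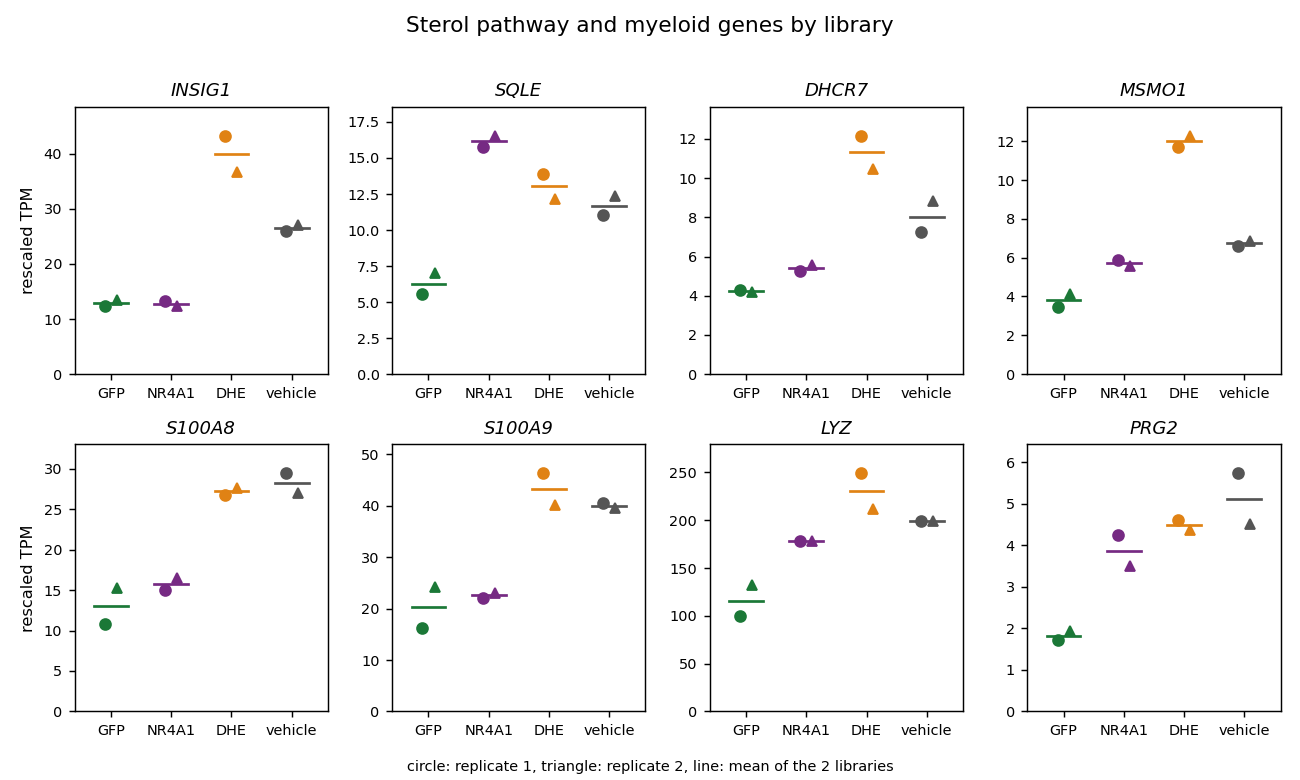
Rescaled TPM (y axis, from 0) of 4 sterol pathway genes and 4 myeloid genes in the 2 libraries of each group (x axis); lines are means. INSIG1 lies at 12.3 and 13.4 in GFP RNA cells and at 26.0 and 27.1 in vehicle cells.

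Housekeeping groups had small shifts. Of 79 cytosolic ribosomal protein genes, both GFP RNA libraries lay below both vehicle libraries in 74 (93.7%, against 29.3% of all entries). Yet 17 were lower at an unadjusted p under 0.05 (21.5%, against 9.45% of all entries). Their median log2 fold change was -0.26, or -0.14 without GFP RNA replicate 1. Of 59 nuclear genes of the respiratory chain, 33 were lower at an unadjusted p under 0.05 (55.9%, against 9.45% of all entries) and 0 higher. Their median was -0.24, or -0.15 without that library. The 15 mitochondrially encoded genes had a median of 1.39, which was 0.44 without GFP RNA replicate 1, and MT-ND1 had 378 and 93.0 against 48.6 and 48.2.

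**Figure D5:**
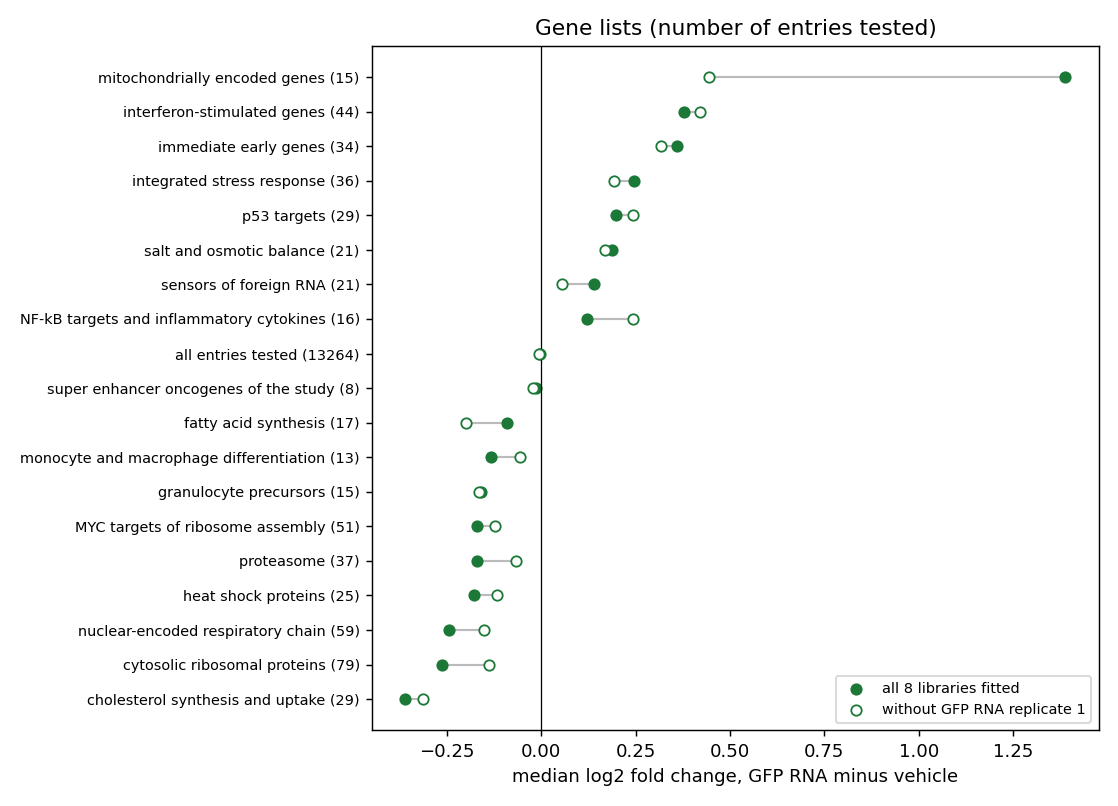
Median log2 fold change of GFP RNA over vehicle (x axis) for 18 gene lists and all entries tested (y axis, number tested in brackets), with all 8 libraries fitted (filled) and without GFP RNA replicate 1 (open). Interferon-stimulated genes lie at 0.38 and 0.42, cholesterol genes at -0.36 and -0.31, and mitochondrially encoded genes lie at 1.39 and 0.44.

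The genes that the study set out to follow were measured in the same libraries. NR4A1, the nuclear receptor encoded by the RNA of the companion arm, had 2.80 and 2.79 rescaled TPM in GFP RNA cells and 1.22 and 1.67 in vehicle cells (log2 fold change 0.77, adjusted p = 0.083 by limma). NR4A1 RNA cells had 720 and 699, a level in which the electroporated RNA and the cells' own transcript cannot be told apart. NR4A2 and NR4A3 stayed below 1 TPM in all 4 libraries and were not tested. MYC, the oncogene whose super enhancer the study follows, had 166 and 155 rescaled TPM in GFP RNA cells and 192 and 184 in vehicle cells, a log2 fold change of -0.23 (SE 0.0627, adjusted p = 0.20 by limma). MYB had 128 and 136 against 151 and 146.

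Of the 8 super enhancer oncogenes, 1 was higher (ETV6, 12.5%) and 2 lower (MYC and MYB, 25.0%) at an unadjusted p under 0.05. Among all entries these shares were 10.3% and 9.45%. The list's median log2 fold change was -0.01, with its sign turning at another scaling (0.11 with equal totals without the most abundant RNA classes). BCL2, an inhibitor of apoptosis, had 20.9 and 21.0 rescaled TPM in GFP RNA cells and 20.9 and 20.9 in vehicle cells. IRF8, a myeloid transcription factor, had 178 and 179 against 186 and 180, CDK6, a G1 kinase, had 89.2 and 96.5 against 96.9 and 97.7, and P2RY2, a nucleotide receptor, had 35.9 and 29.1 against 31.8 and 32.3. MEF2D had 66.5 and 41.1 against 35.9 and 36.2 and ETV6 had 23.1 and 17.4 against 14.8 and 13.7, and in both the higher GFP RNA library was replicate 1. Without it their log2 fold changes were 0.19 and 0.28.

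Several genes of other functions stood among the small p-values. GAS7, a cytoskeletal adaptor, had 13.7 and 13.4 rescaled TPM in GFP RNA cells and 8.55 and 8.81 in vehicle cells. The receptor kinase AXL had 6.43 and 5.50 against 3.02 and 3.12, and CDC42EP3, an effector of the small GTPase CDC42, had 32.7 and 31.3 against 20.6 and 21.7. AHNAK, a very large scaffold protein of the plasma membrane, had 59.7 and 54.3 against 38.0 and 38.4. For all of these the GFP RNA libraries lay close together, so GFP RNA replicate 1 did not set the difference: without it the log2 fold changes lay between 0.50 for AHNAK and 0.75 for AXL.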

How the data were processed

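RNA-seq of MOLM-14 cells was analysed from the authors' deposited table of TPM, 1 column per library. Per the labels, libraries were stranded, randomly primed and prepared from total RNA after a ribosomal RNA reduction step, and the submitters' processing notes name Salmon 0.11.0 and hg19. TPM sums to 1000000 in each library, so read depth is unknown and no counting interval can be given. TPM values were rescaled by the median of ratios over 11460 entries with 1 TPM in all 8 libraries, then log2-transformed with a pseudocount of 0.5, which understates the change of low genes. All 4 RNA-seq groups entered 1 limma fit (limma 3.58.1, R 4.3.3) with an intensity trend, tested on simulated data beforehand; adjustment was over all 13264 entries. Entries were called at an adjusted p under 0.05 and more than 1.5-fold.

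Named genes were to be the 12 largest rises and falls with a mean of 5 rescaled TPM or more that kept 1.5-fold without GFP RNA replicate 1, up to 4 called genes a list in each direction, the 6 largest changes among called entries, the super enhancer oncogenes, the NR4A family and marker genes. The members and the 46 gene lists were chosen with earlier results of these data known. Symbols were matched to GENCODE (27994 of 56515). Of repeated symbols, 1449 entries were kept apart. Shared replicate numbers did not pair the samples, so the main fit has no block. Alternatives covered scaling, pseudocount, filter, fit, threshold and leaving out each library. Sheets with the authors' own fold changes and p-values for DHE and NR4A1 RNA were not used. The ChIP-seq samples were not analysed here, nor was the GFP RNA itself.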

Additional observations from a re-analysis of the deposited data

How the results depend on the processing

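The count of 2 entries higher and 0 lower at an adjusted p under 0.05 (limma) moved with many choices, and the cause was not tested. Higher and lower calls were 4 and 0 without rescaling, 4 and 1 with equal totals after ribosomal, polymerase III, small nuclear and mitochondrially encoded transcripts were set aside, 21 and 3 with a pseudocount of 0.1, 21 and 12 without the filter, 3 and 1 with a filter of 5 TPM, 21 and 2 with robust empirical Bayes, 47 and 14 without the intensity trend, and 73 and 21 at an adjusted p under 0.10, a threshold chosen after seeing the data. No entry was called in the 4 libraries alone (2 residual degrees of freedom), with array quality weights, or with GFP RNA replicate 1 and DHE replicate 2 both left out, which gave 0 higher and 0 lower each. The replicate block gave 0 higher and 0 lower; the replicate differences of GFP RNA and vehicle correlated at 0.0144, so the numbers do not pair the samples. Leaving out 1 library at a time gave 0 to 352 higher and 0 to 192 lower calls, the largest counts without GFP RNA replicate 2 and 0 higher without GFP RNA replicate 1 or vehicle replicate 2. IRF9 and RF01518 kept their direction in every alternative. Genes near 0 changed sign. The RSAD2 log2 fold change was -0.084 without rescaling, -0.14 with quantile normalization and -0.13 (without GFP RNA replicate 2) to 0.15 (without GFP RNA replicate 1) on leaving out 1 library. BCL2 was -0.11 without rescaling, -0.011 with quantile normalization and -0.0022 to 0.0084 on leaving out 1 library. P2RY2 was -0.10 without rescaling, -0.13 without GFP RNA replicate 1 and DHE replicate 2, and -0.14 to 0.16 on leaving out 1 library. With equal totals CDK6 was 0.054 and IRF8 0.089, and with quantile normalization 0.023 and 0.085. The KRT18 log2 fold change was -0.032 without rescaling. Of the lists named, the median moved by over 1.5 times without GFP RNA replicate 1 for sensors of foreign RNA, NF-kB targets, ribosomal proteins, the respiratory chain, heat shock proteins, fatty acid synthesis, monocyte differentiation, the BCL2 family, epithelial and fibroblast markers and mitochondrially encoded genes.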
